A study of Mus musculus with 35 samples.

Results

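Smooth muscle contractile genes encode the actin, the actin-binding proteins and the myosin chains with which smooth muscle cells and activated fibroblasts pull. The 10 genes described here were taken from a fixed list of names, which was chosen with earlier results of these data known. They are the actins Acta2, Actg2, Acta1 and Actc1, the thin filament proteins Cnn1, Tagln, Tpm1 and Tpm2, the myosin heavy chain Myh11 and the myosin light chain Myl9. All 10 were found by Ensembl identifier among the 54752 genes of each table. Acta1 and Actc1 are the skeletal and cardiac muscle actins, so the list is not restricted to smooth muscle.

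The cells were mouse embryonic fibroblasts, isolated at E13.5 and used at passage 2. Their fathers carried an Oct4-GFP transgene on a CBA/CaJ × C57BL/6J background, and their mothers are given as 129S12/SvJaeJ in the label of the JEGS day 2 sample, while most other samples' labels carry another number after 129S. The cells were infected for 48 hours with retroviruses for all of Jdp2, Esrrb, Glis1 and Sall4 (JEGS, 3 libraries, days 2, 4 and 6), or for 3 of these factors. The arms minus Esrrb, minus Glis1, minus Jdp2 and minus Sall4 have 8 libraries each, 1 per day for days 0 to 7. After infection every arm was moved to iCD3, a medium for reprogramming to pluripotency, together with a Rock inhibitor, which blocks a kinase that drives actomyosin contraction. Uninfected cells and cells without the inhibitor were not analysed here, and the start of the medium, the inhibitor and time cannot be told apart. No day of an arm has a replicate, and separate cultures are not stated, so p-values measure only the spread between these libraries.

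In fibroblasts these genes are read out by serum response factor (SRF), which binds a DNA element called the CArG box together with myocardin family partners. The partners Mrtfa and Mrtfb are held in the cytoplasm by actin monomers and enter the nucleus when signalling drives actin into filaments. TGF-beta and a stiff substrate raise the same genes, and Acta2 and Tagln are the usual markers of a fibroblast turned into a myofibroblast.

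Promoter sequence was at hand for 7 of the 10 genes in RefSeq's set for build GRCm38.p6, a short window around each start site. The CArG box was searched on both strands, and it stood in 3 of the 7, those of Acta1, Actc1 and Myl9, and in 1.467% of all 32851 promoters. The form with 1 other base stood in 5 of the 7, the other 2 being Acta2 and Tpm1, and in 17.46% of all promoters. The stretches around the matches are shown because this element is the known SRF site of the family. Capitals mark the match, and each line runs 5′ to 3′ on the gene's own strand. Those of Acta1 (minus strand, chr8:123894799-123894888), Actc1 (minus strand, chr2:114052888-114052962) and Myl9 (plus strand, chr2:156775263-156775352) hold the exact element, which starts 73, 47 and 161 bases before the RefSeq start site.
Acta1: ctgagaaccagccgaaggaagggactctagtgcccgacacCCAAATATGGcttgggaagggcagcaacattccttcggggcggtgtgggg
Actc1: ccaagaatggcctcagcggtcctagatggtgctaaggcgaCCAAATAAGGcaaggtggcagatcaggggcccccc
Myl9: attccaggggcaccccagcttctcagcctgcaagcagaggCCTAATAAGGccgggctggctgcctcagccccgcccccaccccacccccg
For Acta2 (minus strand) the pair of matches with 1 other base start 84 and 34 bases before the start site, at chr19:34255438-34255467 and chr19:34255388-34255417. This RefSeq start lies 217 bases from the nearest GENCODE start, and all 30 bases of both stretches fall in an exon of a GENCODE transcript that starts earlier.
Acta2 distal: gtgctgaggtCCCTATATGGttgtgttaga
Acta2 proximal: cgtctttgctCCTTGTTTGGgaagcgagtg
A match is a description of the letters only, and binding was not measured.

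At day 0 the fibroblasts carried all 10 contractile genes, led by Acta2, Tagln and Tpm1. Levels are given in TPM, which corrects for depth and transcript length, so that genes can be compared. Acta2 averaged 5389 ± 1361 TPM over the 4 arms (SD, n = 4), above Tagln with 3105 ± 779 TPM and Tpm1 with 2627 ± 312 TPM. Myl9 (1069 ± 209 TPM) and Tpm2 (760.5 ± 79.4 TPM) followed. Cnn1 stood at 390.1 ± 207 TPM, Actg2 at 274.7 ± 175 TPM and Acta1 at 100.2 ± 60.1 TPM. Neighbours in this order overlapped in range between arms for Tagln and Tpm1, for Myl9 and Tpm2, and along Cnn1, Actg2 and Acta1. Myh11, the smooth muscle myosin heavy chain, was low at 8.19 to 13.7 TPM, and Actc1 lay at 0.62 to 5.0 TPM. Together the 10 genes made up 1.5%, 0.994%, 1.37% and 1.63% of all TPM at day 0 in the minus Esrrb, minus Glis1, minus Jdp2 and minus Sall4 arms. Myocd, which encodes myocardin, the SRF partner specific to muscle, was at 0 to 25.5 TPM from 26 counts in all at day 0, and at 0 in 14 of the 24 leave-out libraries of days 2 to 7.

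**Figure D1:**
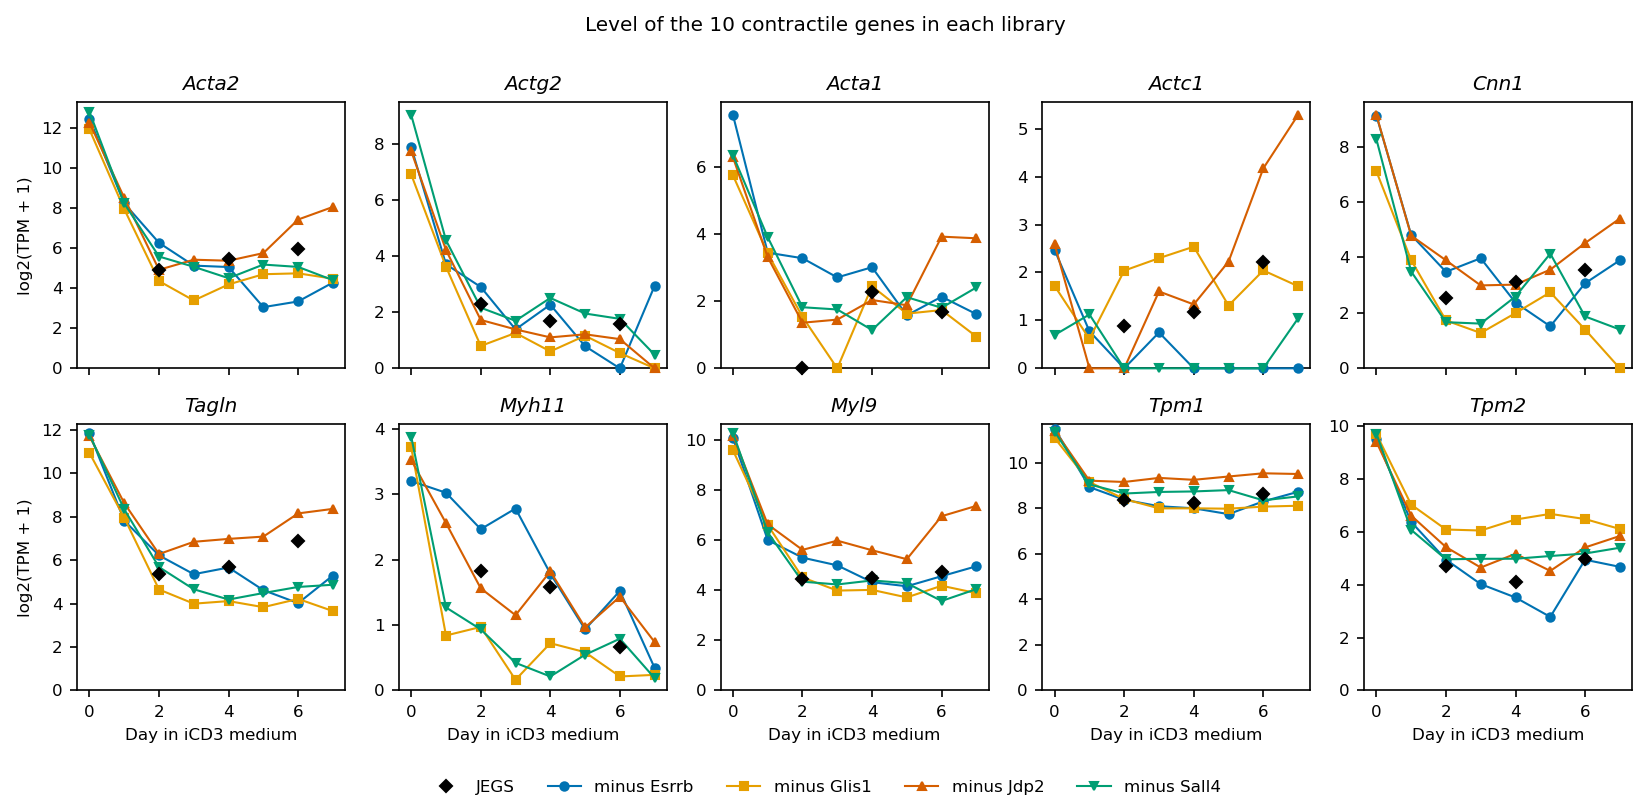
Level of each gene as log2(TPM + 1) against day for the 3 JEGS libraries (black diamonds) and the 4 leave-out arms (lines through 8 libraries each), 1 point per library. Acta2 is at least 3883 TPM in every arm at day 0 and at most 364 TPM at day 1, and the minus Jdp2 line lies above the other 3 arms for Tagln, Myl9 and Tpm1 on every one of days 2 to 7.

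Over the first day in iCD3 medium 9 of the 10 contractile genes were lower in every arm. The share of all genes lower in every arm is not given here. At day 1 the 10 genes summed to 1216 to 1606 TPM, against 9943 to 16275 TPM at day 0, so that 8.10% to 13.3% of the level was left. Acta2, the smooth muscle actin, had 300.4, 245.8, 364.3 and 299.6 TPM on day 1 in the minus Esrrb, minus Glis1, minus Jdp2 and minus Sall4 arms, against 5629, 3883, 4919 and 7125 TPM on day 0. Every arm was far below its own day 0, and the ranges of the days did not overlap. Cnn1, calponin, an actin-binding protein that restrains myosin, had 27.1, 14.0, 26.6 and 10.2 TPM on day 1, against 554, 136.6, 564 and 306 TPM on day 0 in the same order of arms. Tagln, the actin-bundling protein SM22, had 223.9, 246, 393 and 322.5 TPM on day 1, against 3658, 1954, 3329.8 and 3479 TPM on day 0. The highest day 1 value of each of these 3 genes was thus below its lowest day 0 value.

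In the fit of the 32 leave-out libraries, 9 of the 10 genes fell on day 1 relative to day 0, where 13.9% of the 18135 genes tested changed and 6.32% fell. Cnn1 changed by -4.54 ± 0.46 on the log2 scale (SE, edgeR quasi-likelihood F test, Benjamini-Hochberg adjusted p = 8.2e-08), a 23.3-fold lower level. Acta2 changed by -4.23 ± 0.59 (adjusted p = 9.5e-06), Actg2, the enteric smooth muscle actin, by -3.99 ± 0.31 (adjusted p = 8.9e-10) and Myl9, the regulatory light chain through which myosin is switched on, by -3.71 ± 0.40 (adjusted p = 2.1e-07). Tagln (-3.44 ± 0.50), Acta1 (-3.34 ± 0.51) and Tpm2 (-3.18 ± 0.35) lay between these and the smallest called changes, those of Tpm1 (-2.44 ± 0.24) and Myh11 (-2.30 ± 0.49, adjusted p = 0.0015). Actc1 had 1, 1, 0 and 2 counts on day 1, against 6, 4, 8 and 1 counts on day 0, and its -2.32 ± 1.44 did not pass (adjusted p = 0.32). The median over the 10 was -3.39, against 0.04 over all genes tested. Ordered from the lowest change among the 18135, Cnn1 stood at place 43, Acta2 at place 57 and Actg2 at place 77. In bulk RNA, fewer cells of a kind and less RNA per cell cannot be told apart.

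**Figure D2:**
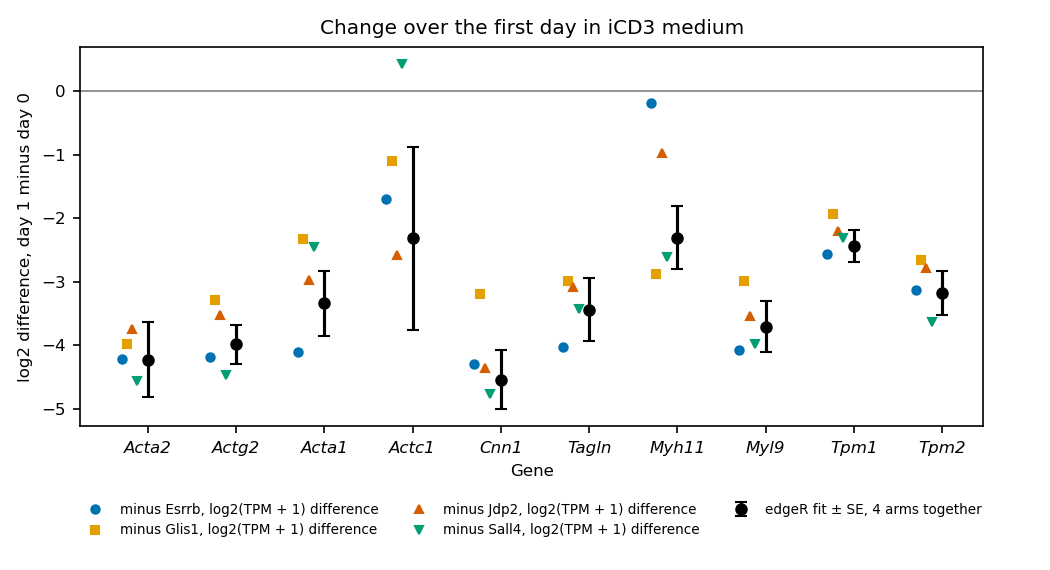
Change of each gene over the first day in iCD3 medium, day 1 minus day 0 on the log2 scale. Coloured symbols give the log2(TPM + 1) difference within each of the 4 arms, and black points the edgeR estimate ± SE over the arms; 9 estimates lie between -4.54 and -2.30 and passed the test, while Actc1, at -2.32 with an SE of 1.44, did not.

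The arms differed in how far some of these genes went down. For Acta2 the day 1 level was 4.21% to 7.41% of day 0, and for Tpm1, a tropomyosin that covers the actin filament, 16.8% to 26.2%. Myh11 was the least uniform of the 9 called genes, with 7.12, 0.79, 4.89 and 1.41 TPM on day 1 in the minus Esrrb, minus Glis1, minus Jdp2 and minus Sall4 arms, against 8.19, 12.1, 10.5 and 13.7 TPM on day 0. Its minus Esrrb library therefore kept 86.9% of its day 0 level and its minus Glis1 library 6.51%. On day 2 Acta2 stood at 7.93% to 25.3% of day 1, Tagln at 9.78% to 32.7% and Tpm1 at 59.5% to 96.1%. Acta2 was the highest of the 10 genes in all 4 day 0 libraries, with 35.9% to 43.8% of their summed TPM. Tpm1 was the highest in all 31 later libraries, JEGS included, with 37.1% to 81.0%.

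The transcripts counted for Tpm1 also differed. RSEM gives each gene a length averaged over its transcripts by abundance. For Tpm1 it was 1462 to 1734 bases in the 28 leave-out libraries of days 1 to 7 (median 1654), against 1760 to 1824 bases in the 4 libraries of day 0 (median 1786). The ranges did not overlap, and the JEGS libraries, at 1657 to 1687 bases, lay within the later range. At least 364 counts stood behind each of the leave-out values. Which tropomyosin transcripts changed cannot be read from gene tables.

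**Figure D3:**
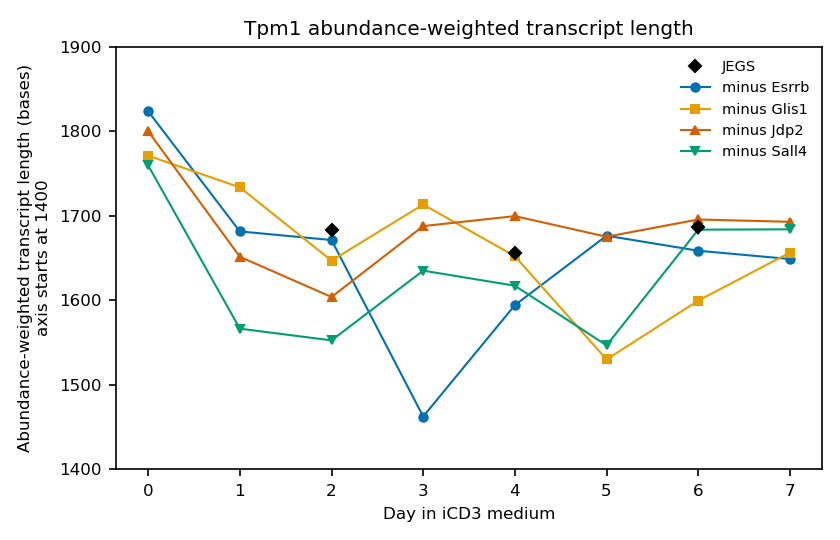
Abundance-weighted transcript length of Tpm1 in bases against day, 1 point per library, JEGS as black diamonds and the leave-out arms as lines; the vertical axis does not start at 0. The 4 day 0 libraries lie at 1760 bases or more and all later ones at 1734 bases or less.

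Genes for the proteins that work with these also fell. For the lists below, 13.9% of all genes tested changed on day 1 and 6.32% fell. Of 25 partners of the contractile apparatus, 22 fell on day 1 and none rose. Lmod1, an actin filament nucleator of smooth muscle, changed by -4.65 ± 0.62 (adjusted p = 5e-06), and Tgfb1i1, the focal adhesion protein Hic-5, by -3.56 ± 0.40 (adjusted p = 3.4e-07). Both non-muscle actins fell too, Actb by 1.98 and Actg1 by 1.72 on the log2 scale. Of 15 other SRF targets 12 fell, with Ankrd1 at -4.17 ± 0.52, Thbs1 at -3.78 ± 0.29 and Ccn2 at -3.5 ± 0.35, which are also known as targets of YAP. Of 15 genes that regulate SRF, 3 fell, Srf itself (-1.30 ± 0.16, adjusted p = 2e-06), Rhoc (-1.04 ± 0.24) and Rhoa (-0.68 ± 0.11), and none rose. Of 17 genes of the TGF-beta pathway 7 fell and 1 rose; the one that rose was Bambi, a decoy receptor, at 1.49 ± 0.26. Among 10 fibroblast markers 4 fell (Col1a1, Thy1, Col3a1 and Col1a2) and none rose, while their sum was 347 to 1089 TPM in the leave-out libraries of days 2 to 7, against 2367 to 4177 TPM at day 0. The part of a change in cell makeup in the fall of the contractile genes was not tested.

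From day 2 on the contractile genes did not share 1 course. With a straight line over days 0 to 7, 9 of the 10 fell in the mean of the 4 arms (all but Actc1), where 31.2% of all genes changed and 15.8% fell. Over days 2 to 7 alone, a choice made after the data were seen, only Myh11 still fell, by 0.346 per day on the log2 scale (adjusted p = 0.012), where 17.1% of genes changed and 8.41% fell. Slopes of Acta2, Myl9, Tpm1, Cnn1, Tpm2 and Acta1 on those days were above 0 but did not pass, at 0.024, 0.024, 0.016, 0.069, 0.074 and 0.117 per day. The slope of Actg2 was -0.404 per day and narrowly missed the threshold (adjusted p = 0.0549).

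Without Jdp2, the AP-1 family repressor of the set, 6 of the 10 genes were higher than in the mean of the other 3 leave-out arms and none was lower, where 23.5% of genes differed, 14.4% higher and 9.13% lower. Tagln led among the abundant genes. It had 76.6, 113.7, 124.9, 134.4, 283 and 327 TPM on days 2 to 7 in the minus Jdp2 arm, against 11.6 to 73.3 TPM (median 23.8) in the 18 libraries of the other arms on those days. Every minus Jdp2 library lay above all 18. The difference within days was 2.28 ± 0.28 on the log2 scale (adjusted p = 4.3e-07), a 4.86-fold higher level. Like those of the other genes in this arm, it was fitted over days 0 to 7. At day 0 minus Jdp2 was not the highest arm for Tagln (3330 TPM, against 1954 to 3658 TPM), Myl9, Tpm1 or Acta2. Myl9 had 48.1, 62.3, 47.5, 36.9, 123.6 and 164.9 TPM in minus Jdp2 cells, against 10.9 to 38.6 TPM (median 18.2) in the others, and differed by 1.46 ± 0.23 (adjusted p = 2.4e-05). Its day 5 library overlapped the others.

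Tpm1 showed the steadiest gap. It had 573, 649, 612, 677, 747 and 731 TPM on days 2 to 7 in minus Jdp2 cells, against 214.6 to 447 TPM (median 322) in the other 18 libraries, with no overlap and a difference of 0.79 ± 0.13 (adjusted p = 4.6e-05). Acta2 behaved differently in time, with 29.3, 41.9, 40.4, 52.9, 171.3 and 265.3 TPM, against 7.31 to 75.9 TPM (median 23.3) in the others. Only its libraries of days 6 and 7 were above all others, and the difference of 1.27 ± 0.33 (adjusted p = 0.0046) became 0.79 without the day 7 library, still past the threshold. Cnn1 had 13.9, 6.95, 7.11, 10.8, 21.9 and 41.3 TPM from 12, 15, 17, 15, 94 and 86 counts, against 0 to 16.6 TPM (median 2.82) in the others. Its libraries of days 2 to 5 lay inside that range and those of days 6 and 7 above it. It differed by 1.69 ± 0.29 (adjusted p = 6.3e-05). TPM and counts order its last pair of libraries differently; TPM also takes up the depth and the transcript length assigned in each library, 2310 bases on day 6 and 1684 bases on day 7.

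Actc1, the cardiac actin, was detected mainly late in the minus Jdp2 arm. It had 0, 6, 3, 7, 44 and 68 counts on days 2 to 7, or 0 to 38.1 TPM, against 0 to 4.81 TPM in the other 18 libraries. The difference was 2.50 ± 0.63 (adjusted p = 0.0038), and it became 1.76 without the day 7 library and no longer passed. Myh11 (0.68 ± 0.31, adjusted p = 0.12), Acta1 (0.48 ± 0.34), Actg2 (-0.19 ± 0.26) and Tpm2 (-0.24 ± 0.20) did not pass. The median over the 10 was 1.03, against 0.01 over all genes. Among the 4 arms minus Jdp2 was the highest on 6 of 6 days for Tagln, Myl9 and Tpm1, on 5 for Acta2, on 4 for Cnn1 and on none for Actg2 and Tpm2.

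**Figure D4:**
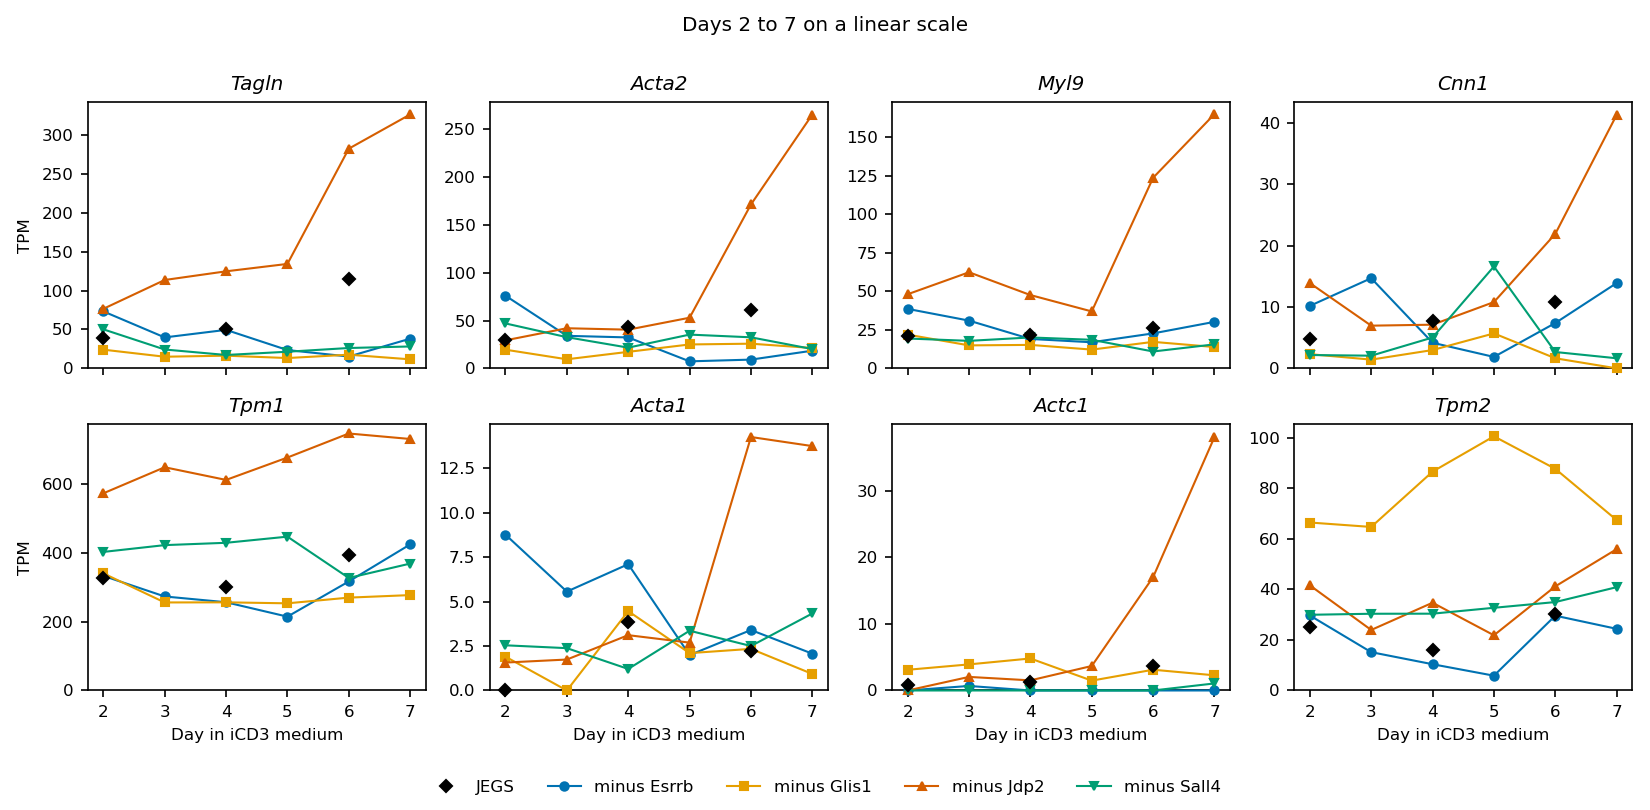
TPM on a linear axis against day for 8 of the 10 genes on days 2 to 7, JEGS as black diamonds and the leave-out arms as lines, 1 point per library; each panel has its own vertical scale. Minus Jdp2 reaches 327 TPM for Tagln, 265.3 TPM for Acta2 and 38.1 TPM for Actc1 on day 7, and minus Glis1 is the highest arm for Tpm2 on all 6 days.

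The late course in the minus Jdp2 arm was tested as a difference of slopes. Over days 0 to 7 no member passed (0 of 10, where 0.127% of genes did); the unadjusted p was under 0.05 for 6 of them, Actc1, Tagln, Myl9, Cnn1, Acta2 and Acta1, and DESeq2 and limma called 0. Without the day 0 library of minus Jdp2 6 passed, but there 352 of all genes passed, against 23 in the full fit. Without the day 7 library of minus Sall4 1 passed. Over days 2 to 7, chosen after the data were seen, 5 of the 10 climbed faster than in the other 3 arms, where 3.88% of genes differed in slope and 1.24% were higher. These were, in edgeR's test, Acta2 (0.832 per day on the log2 scale, adjusted p = 1.9e-05), Cnn1 (0.84, adjusted p = 0.0022), Acta1 (0.826, adjusted p = 0.015), Tagln (0.566, adjusted p = 0.0011) and Myl9 (0.522, adjusted p = 0.00081). Without the day 6 library of minus Jdp2, and likewise without its day 7 library, 4 of these 5 passed (2.8% and 1.41% of all genes) and Acta1 did not (adjusted p = 0.058 and 0.071). Tpm1, high throughout, was not among them. In minus Glis1 and minus Sall4 none of the 10 differed in slope over days 0 to 7, where 3.55% and 1.84% of genes did; DESeq2 and limma called 0 as well, and no member had an unadjusted p under 0.05.

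Many contractile partners were also higher in the minus Jdp2 arm. Of the 25 partners 16 were higher and 2 lower, where 14.4% of all genes tested were higher and 9.13% lower. Pdlim7 stood at 1.64 ± 0.15, Tpm4 at 1.31 ± 0.11, Csrp1 at 1.29 ± 0.17 and Actn1, an actin cross-linker, at 1.23 ± 0.11. Actg1 (0.83 ± 0.10) and Actb (0.55 ± 0.09) were both higher. Of the 15 other SRF targets 6 were higher, led by Ankrd1 (2.61 ± 0.27) and Fhl2 (1.59 ± 0.18), and 2 were lower, the immediate early genes Fos (-1.67 ± 0.24) and Egr1 (-0.90 ± 0.29). Of the 15 SRF regulators 4 were higher, among them Limk1 (0.65 ± 0.15) and Rock2 (0.47 ± 0.13), and 11 did not pass (median 0.10). Of the 17 TGF-beta genes 5 were higher, among them Tgfb1 (0.65 ± 0.18), and 12 did not pass (median 0.16). None of either list was lower.

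Counts of called markers of other cells lay mostly near the share over all genes tested, 14.4% higher and 9.13% lower in the minus Jdp2 arm. Fibroblast markers were 1 higher and 3 lower of 10 in the minus Jdp2 arm, and pericyte markers 0 higher and 1 lower of 7 tested. Cardiac markers were 2 higher (Myl7 and Ryr2) and 1 lower (Tnni3) of 10 tested. They summed to 23.4 to 58.0 TPM in minus Jdp2 libraries of days 2 to 7, against 26.8 to 45.2 TPM in minus Esrrb, 14.2 to 24.2 TPM in minus Glis1 and 11.5 to 51.1 TPM in minus Sall4. Skeletal muscle markers were 2 higher and 1 lower of 8 tested and summed to 99.0 to 484 TPM in minus Jdp2, against 21.3 to 63.5 TPM in minus Esrrb, 57.7 to 70.7 TPM in minus Glis1 and 77.1 to 173.9 TPM in minus Sall4. Nkx2-5, Myod1 and Myog, factors of heart and skeletal muscle lineages named after their values were seen, were each at 0 in 23 of the 24 leave-out libraries of these days. In JEGS, the skeletal markers summed to 98.3, 536 and 938 TPM over its 3 libraries, lowest to highest, of which Mylpf made up 0 to 907 TPM. The part of other cell types in the contractile values was not tested. The delivered factors also differed: Esrrb had 594 to 2877 TPM in the minus Jdp2 arm, against 4292 to 7451 TPM in minus Glis1 and 5292 to 7368 TPM in minus Sall4. The part of Esrrb dose in the contractile genes was not tested.

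**Figure D5:**
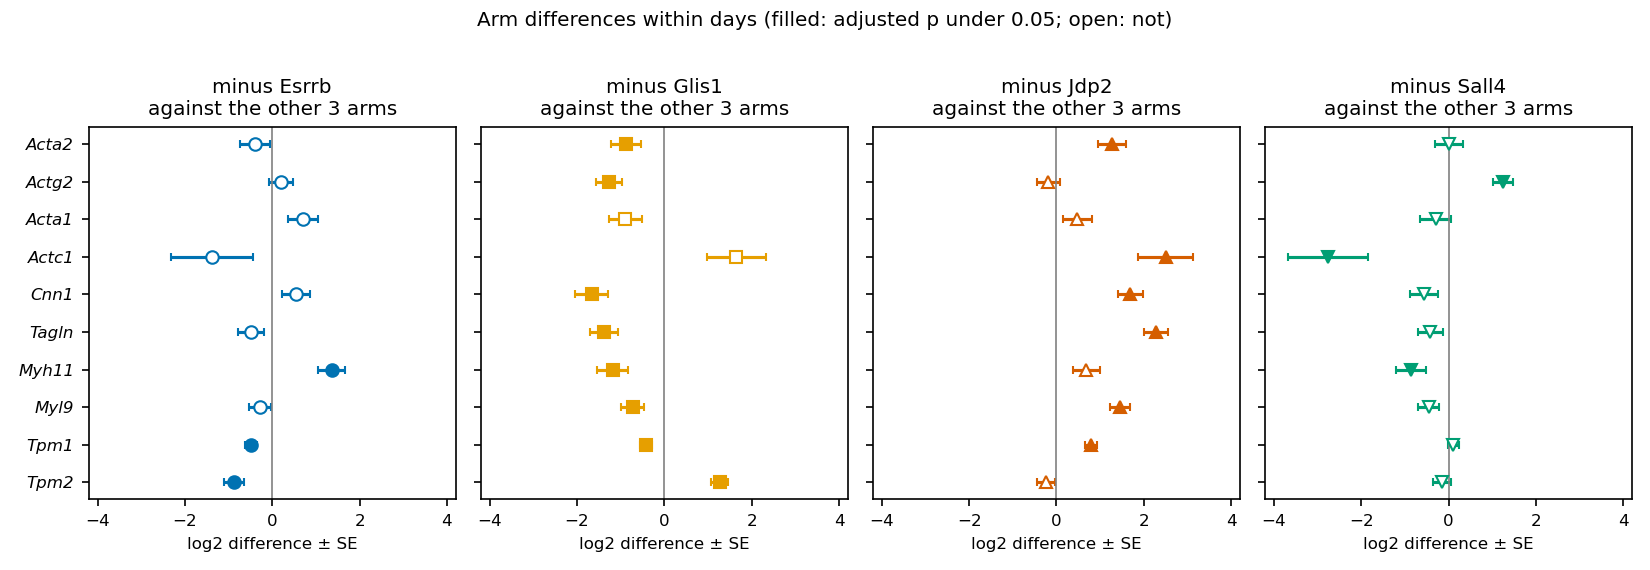
Difference of each leave-out arm from the mean of the other 3, within days, as log2 ± SE over 32 libraries; filled symbols passed an adjusted p of 0.05. Minus Jdp2 has 6 filled symbols, all above 0, and minus Glis1 has 7 below 0 and Tpm2 above it at 1.26.

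Without Glis1, a zinc finger factor, most of the contractile genes were lower. Relative to the other 3 arms 7 of the 10 were lower and 1 was higher, where 36.3% of genes differed, 16.3% lower and 20% higher. Cnn1 (-1.67 ± 0.37, adjusted p = 0.00064), Tagln (-1.38 ± 0.32, adjusted p = 0.00087), Actg2 (-1.26 ± 0.29, adjusted p = 0.001) and Myh11 (-1.18 ± 0.36, adjusted p = 0.01) were lower. On days 2 to 7 minus Glis1 had only 22 counts for Cnn1, 5 for Actg2 and 24 for Myh11. It was already the lowest arm at day 0 for Cnn1 (136.6 TPM, against 306 to 564 TPM). The same held for Tagln (1954 TPM, against 3330 to 3658 TPM) and Actg2 (119.9 TPM, against 215 to 526 TPM). It also held for Acta2 (3883 TPM, against 4919 to 7125 TPM), Myl9 (773 TPM, against 1091 to 1255 TPM) and Tpm1 (2188 TPM, against 2656 to 2916 TPM). For Myh11 it did not (12.1 TPM, against 8.19 to 13.7 TPM). On days 2 to 7 Tagln had 11.6 to 24.1 TPM (median 15.6) in minus Glis1 cells, against 15.2 to 327 TPM (median 44.7) in the other arms. Myl9 (-0.73 ± 0.26, adjusted p = 0.026) and Tpm1 (-0.42 ± 0.14, adjusted p = 0.017) were also lower. Acta2 was at the edge, at -0.88 ± 0.34 (adjusted p = 0.046), and it failed in 20 of the 32 fits that each left out 1 library, with values between -1.0 and -0.71. Myl9 failed without the day 0, day 6 or day 7 library of minus Glis1. Since each arm is set against the mean of the other 3, the high minus Jdp2 values also enter these differences.

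Tpm2, the beta tropomyosin, went the other way. It had 66.5, 64.8, 86.7, 100.7, 87.8 and 67.5 TPM on days 2 to 7 in minus Glis1 cells, against 5.86 to 56.0 TPM (median 30.2) in the other 18 libraries. No library overlapped, and minus Glis1 was the highest arm on 7 of 8 days. The difference was 1.26 ± 0.19 (adjusted p = 5.5e-06). At day 0 the arms lay at 820.7 TPM in minus Glis1, against 722, 667.5 and 832 TPM in minus Esrrb, minus Jdp2 and minus Sall4. On day 1 Tpm2 stood at 128.6 TPM in minus Glis1 cells, against 65.9 to 96.2 TPM in the other arms. Acta1 (-0.89 ± 0.38, adjusted p = 0.066) and Actc1 (1.65 ± 0.68, adjusted p = 0.059) did not pass; Actc1 was detected in all 8 minus Glis1 libraries, from 44 counts in all. Contractile partners in this arm were 11 lower and 5 higher of 25, with Itga8 (-1.96 ± 0.31) and Tagln2 (-1.33 ± 0.15) lower and Ppp1r14a (2.53 ± 0.38), an inhibitor of myosin phosphatase, and Itga1 (2.00 ± 0.16) higher. Cardiac markers were 5 higher and 1 lower of 10 tested, with Myl2 (2.67 ± 0.73) higher from 14 counts in 8 libraries and Myl7 (-5.66 ± 0.69) lower from 1 count, and their part in the Actc1 and Tpm2 values was not tested.

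Without Esrrb, an orphan nuclear receptor, 1 of the 10 was higher and 2 were lower, where 42.8% of genes differed, 20.9% higher and 21.9% lower. Myh11 was higher by 1.36 ± 0.31 (adjusted p = 0.00081). It had 4.52, 5.87, 2.45, 0.91, 1.87 and 0.27 TPM on days 2 to 7 in minus Esrrb cells, from 110 counts, against 0.12 to 2.53 TPM (median 0.66) in the other 18 libraries. Minus Esrrb was the highest of the 4 arms on 4 of 8 days, and the ranges overlapped. Tpm2 (-0.88 ± 0.22, adjusted p = 0.0018) and Tpm1 (-0.48 ± 0.14, adjusted p = 0.0065) were lower. The high Tpm2 values of minus Glis1 (64.8 to 100.7 TPM on days 2 to 7) and Tpm1 values of minus Jdp2 (573 to 747 TPM) enter these differences. Low Tpm1 was not particular to minus Esrrb, at 214.6 to 424.5 TPM on those days, against 253.3 to 340.4 TPM in minus Glis1. Tpm2 had 5.86 to 29.7 TPM (median 19.8) on days 2 to 7, against 21.9 to 100.7 TPM (median 41.1) in the others. Without the day 7 library of minus Jdp2 5 of the 10 passed in place of 3, where the fits without 1 library passed 6972 to 7976 of all genes. On days 3 to 7 alone 6 of the 10 passed, and the share of all genes in that fit is not given here. Actc1 fell more steeply with day than in the other arms (-1.41 ± 0.41 per day, adjusted p = 0.035, where 6.64% of genes differed in slope), from 8 counts over 8 libraries; it failed without the day 0, 4, 5, 6 or 7 library of minus Esrrb or the day 7 library of minus Sall4, reaching -0.85. Of the 25 partners 12 were lower, among them Myh9 (-1.83 ± 0.18) and Cald1 (-1.78 ± 0.17), and 4 were higher, and of the 15 other SRF targets 11 were lower and 1 higher.

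Without Sall4, also a zinc finger factor, 1 of the 10 was higher and 2 were lower, where 41.8% of genes differed, 22.3% higher and 19.5% lower. Actg2 was higher by 1.25 ± 0.24 (adjusted p = 1e-04). It had 526 TPM on day 0 and 22.8 TPM on day 1 in minus Sall4 cells, against 119.9 to 237.6 TPM and 11.4 to 17.7 TPM in the other 3 arms on the same days. On days 2 to 7 it was at 0.40 to 4.70 TPM from 34 counts, against 0 to 6.70 TPM in the others, so most of its counts came from day 0. Actc1 was lower by 2.77 ± 0.92 (adjusted p = 0.016) with 6 counts in 8 libraries, 5 of them at 0, and failed without the day 0 library of minus Esrrb or the day 6 library of minus Sall4. Myh11 was lower by 0.86 ± 0.34 (adjusted p = 0.043), and failed in 17 of the 32 fits that left out 1 library, with values between -1.22 and -0.63. Acta2 (0.01 ± 0.32) and Tpm1 (0.11 ± 0.13) lay near 0. Ccn2, a matricellular SRF and YAP target, was higher by 3.27 ± 0.17, and of the 15 other SRF targets 9 were higher and 1 lower, while the 25 partners divided into 9 higher and 7 lower.

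With all 4 factors, 5 of the 10 genes (Actg2, Actc1, Tagln, Myh11 and Myl9) lay inside the range of the leave-out arms on each day measured. The share of all genes that did so is not given here, so this count cannot be set against a background. In JEGS Actg2 had only 7 counts in all and Actc1 only 8. JEGS was compared on days 2, 4 and 6, and none of the 10 differed from the mean of the 4 leave-out arms by edgeR, where 4.06% of 16603 genes did; DESeq2 and limma also called 0. At an unadjusted p under 0.05 only Tpm2 was lower (-0.81 ± 0.25, adjusted p = 0.086). Without the day 4 library of minus Esrrb 1 of the 10 passed, where 923 of all genes did, against 674 in the full fit. Acta2 had 29.3, 43.7 and 60.8 TPM in JEGS cells, against 19.5 to 75.9 TPM on day 2, 17.2 to 40.4 TPM on day 4 and 9.12 to 171.3 TPM on day 6 in the leave-out arms. Its day 4 value was above all 4 arms. Acta1 was the gene most often outside the range, on 2 of 3 days, from few counts.

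Against single arms 1 of the 10 genes passed in JEGS against minus Glis1 and 1 against minus Jdp2. Both are tropomyosins, and neither passed against any other single arm. Tpm2 was lower in JEGS than in minus Glis1 (25.3, 16.1 and 30.4 TPM, against 66.5, 86.7 and 87.8 TPM on days 2, 4 and 6; -1.93 ± 0.30, adjusted p = 3e-04), the only one of the 10 to pass, where 19.9% of genes differed and 10.0% were lower. DESeq2 called 2 of the 10. EdgeR also called 2 of the 10 without the day 2 library of JEGS, of minus Esrrb or of minus Jdp2, or the day 6 library of minus Esrrb or of minus Jdp2. Over all 15 fits without 1 library, 1815 to 3786 of all genes passed. Tpm1 was lower in JEGS than in minus Jdp2 (326, 299.7 and 394.5 TPM, against 573, 612 and 747 TPM; -0.86 ± 0.18, adjusted p = 0.016), again the only one, where 2.82% of genes differed and 2.0% were lower. This call failed without the day 2 or day 4 library of JEGS or the day 4 or day 6 library of minus Jdp2, at -0.98 to -0.74 over all 15 such fits. Without the day 2 library of minus Jdp2 3 of the 10 passed, where 153 of all genes did, against 468 in the full fit. Tagln (39.7, 50.4 and 115.2 TPM in JEGS, against 76.6, 124.9 and 283 TPM in minus Jdp2) and Myl9 (20.9, 21.6 and 25.9 TPM, against 48.1, 47.5 and 123.6 TPM) were lower in JEGS on 3 of 3 days, but -1.51 ± 0.47 (adjusted p = 0.11) and -1.39 ± 0.38 (adjusted p = 0.068) did not pass. Of the 25 partners 10 were lower in JEGS than in minus Jdp2 and none higher, with Pdlim7 at -1.50 ± 0.19 and Cald1 at -1.29 ± 0.20. None of the 10 contractile genes differed between JEGS and minus Esrrb, where 6.63% of genes did, or between JEGS and minus Sall4, where 23.8% did; at an unadjusted p under 0.05 these comparisons had Actc1, and Actc1 with Myh11, while DESeq2 and limma called 0 in both. Without the day 6 library of minus Glis1, or the day 2 or day 6 library of minus Jdp2, 1 of the 10 passed against minus Sall4. Over all 15 fits without 1 library, 2160 to 4534 of all genes passed there. The 4 single-arm comparisons share the JEGS libraries. Of the 4 delivered factors, 3 were lower and 1 higher in JEGS than in minus Glis1, and the same numbers held against minus Sall4. Against minus Esrrb 1 was lower and 1 higher, and against minus Jdp2 1 was higher and none lower. The part of factor dose in these comparisons was not tested. JEGS libraries had mean fragments of 199.5 to 202.9 bases, against 201.6 to 213.3 bases in the leave-out arms, and shallow depth (1266379 to 1682386 counts), and the names of their tables mark a second repeat, so arm and repeat cannot be told apart.

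Across all 35 libraries the genes varied together mainly through day 0. The median correlation between pairs of the 10 was 0.805 (Pearson r of log2 CPM, 45 pairs, -0.059 to 0.971), and 0.402 without the 4 day 0 libraries. Tagln and Myl9 were the closest pair (0.971), and 0.939 without day 0. Actc1 was the least alike, with a median of 0.305. The genes whose course was most like the mean of the 10 were Chst12, Anxa6, Myl12b, Cspg4, Tgfb1i1, Col1a1, Cavin1 and Flna, with r between 0.931 and 0.90 among 11085 genes over 35 libraries. None of these 8 stayed in the list without day 0, where Glipr2, Col4a1 and Tubb6 led. The libraries share arms and days and differ in depth, so these are descriptions.

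The factor left out of an arm checked the labels: Jdp2, Glis1, Esrrb and Sall4 stood at 0 to 70.5 TPM in their own leave-out arm, against 206 to 7451 TPM in the libraries that received them. Depth was 1266379 to 3608456 counts per library, so that 1 count was 0.277 to 0.79 CPM. Actins and tropomyosins share sequence, and RSEM divides reads that fit several genes. The expected counts of 8 of the 10 genes were whole in all 35 libraries (within 0.01), those of Acta1 in 33 and those of Tagln in 2.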

How the data were processed

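RNA of 35 libraries was sequenced, 1 per arm and day. Per the submitters' processing notes the tools were bcl2fastq, Bowtie2 and RSEM with genome build mm10; versions and the annotation release are not given in the sources used here. The authors deposited 1 RSEM table per library with expected counts, TPM, FPKM and transcript lengths; FPKM was not used. The series text speaks of fewer libraries, and its library and sequencing kits are not assigned to libraries, so batches could not be examined. The treatment label gives all 4 factors and the same time in iCD3 medium to every sample, against the titles; arms and days were taken from the titles.

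Expected counts were rounded and tested with edgeR 4.0.16 in R 4.3.3 (quasi-likelihood F test, two-sided, TMM, at least 1 CPM in 3 libraries, Benjamini-Hochberg over all genes, threshold 0.05). The leave-out arms were fitted with arm and day (32 libraries), JEGS against them on days 2, 4 and 6 (15 libraries), and slopes with 1 line per arm. SE is the log2 value over the root of F. All 10 genes passed the filter in each fit. DESeq2 1.42.0, limma 3.58.1 on log2(TPM + 1) and the other settings named in the closing section were alternatives. On simulated data for minus Jdp2 against the other 3 arms, 53 of 100 genes changed by 1 on the log2 scale and 71 of 100 changed by 2 were recovered over 17388 genes. For JEGS against the 4 arms these were 42 and 74 of 100 over 16068 genes. For the slope of minus Jdp2, 20 of 100 genes changed by 0.25 per day and 65 of 100 changed by 0.5 were recovered over 17440 genes. Python 3.11.15, numpy 2.4.6, pandas 2.3.3 and matplotlib 3.10.9 made the summaries and plots. Depth was 1266379 to 3608456 counts per library, and few counts limit Actc1, Actg2, Acta1 and Myh11 after day 1.

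The 10 genes, the gene lists and the tests were chosen with earlier results of these data known. All 10 members are named; from each other list, up to 4 genes with the largest absolute log2 difference among those past the threshold, and 8 genes by likeness. Lineage factors at or near 0 and Myocd were named after their values were seen.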

Additional observations from a re-analysis of the deposited data

Results flagged for a closer look

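In 24 of the 44 series of 8 days (10 genes and their sum in 4 arms), the day 0 library stood apart from the other days on the log2(TPM + 1) scale. The days are not replicates, chance marks about 1 in 20 such groups, and the series share libraries. The share of such series among all genes is not given here. Tpm1 stood apart in all 4 arms, at 11.51 in minus Esrrb, 11.1 in minus Glis1, 11.43 in minus Jdp2 and 11.38 in minus Sall4, and so did the sum of the 10 genes, at 13.87, 13.28, 13.74 and 13.99 in the same order. Myl9 did so in minus Esrrb (10.09), minus Jdp2 (10.18) and minus Sall4 (10.29), and Cnn1 in the same arms (9.12, 9.14 and 8.26). Tpm2 did so in minus Glis1 (9.68), minus Jdp2 (9.38) and minus Sall4 (9.7), and Myh11 in minus Glis1 (3.72) and minus Sall4 (3.88). Acta2 in minus Sall4 (12.8), Tagln in minus Jdp2 (11.7), and Actg2 (7.9), Acta1 (7.57) and Actc1 (2.47) in minus Esrrb complete the set.

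Slopes against day differed between arms for 6 values. Actc1 in minus Esrrb had -1.41 per day on the log2 scale relative to the other 3 arms over days 0 to 7. In minus Jdp2, over days 2 to 7, the slopes of Cnn1 (0.84), Acta1 (0.826), Tagln (0.566), Acta2 (0.832) and Myl9 (0.522) were higher than in the other 3 arms.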

How the results depend on the processing

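For the 46 values of single members that passed over all days or, for slopes of minus Jdp2, on days 2 to 7 alone, 1759 alternative values were computed. Against the value over all days, whether past the threshold or not, 1642 kept direction and side of the threshold, 89 no longer passed, 21 newly passed and 7 changed sign. All 9 falls on day 1 passed in every alternative run. Members past the threshold without a day term numbered 0 for minus Esrrb, 0 for minus Glis1, 1 for minus Jdp2 and 1 for minus Sall4, and Acta2 in minus Jdp2 turned to -0.008; by construction the fall from day 0 then enters the spread. JEGS against minus Jdp2 gave 218 genes there, against 468 with it. On days 3 to 7 minus Esrrb had 6 members, against 3. Member counts printed in this section without a count of all genes cannot be set against the share over all genes. Causes of the other shifts were not tested. With DESeq2's Wald test JEGS against minus Glis1 had 2 members, and slopes passed for 987 genes in minus Glis1 (644 by edgeR), 90 in minus Jdp2 (23) and 635 in minus Sall4 (334). With no filter JEGS against the 4 arms gave 1565 genes (674 with it) and 1 member, against minus Esrrb 1773 (1101), against minus Glis1 3 members, against minus Jdp2 1122 genes (468) and 3 members, and against minus Sall4 2 members. With limma these were 110 genes against the 4 arms, 653 against minus Esrrb and 209 against minus Jdp2; its slopes gave 0 members for minus Esrrb, 73 genes for minus Jdp2 and 169 for minus Sall4. Without day 0, slopes gave 0 members for minus Esrrb, 445 genes and 4 members for minus Jdp2 and 530 genes for minus Sall4; with log2(day + 1), 0 members for minus Esrrb and 552 genes for minus Sall4. On days 2 to 7, chosen after the data were seen, the mean slope passed for 3002 genes (5658 over all days) and 1 member, the slope of minus Esrrb for 2 members, of minus Glis1 for 981 genes and of minus Jdp2 for 682 genes and 5 members. Mean slopes changed sign there for Acta1 (0.117), Acta2 (0.024), Cnn1 (0.069), Myl9 (0.024), Tpm1 (0.016) and Tpm2 (0.074). The median correlation among members without day 0 was 0.402, against 0.805. Leaving out 1 library at a time gave 3 to 5 members for minus Esrrb; for JEGS 127 to 923 genes and 0 to 1 members against the 4 arms, 470 to 1119 genes against minus Esrrb, 1815 to 3786 genes and 1 to 2 members against minus Glis1, 103 to 619 genes and 0 to 3 members against minus Jdp2, and 2160 to 4534 genes and 0 to 1 members against minus Sall4. Slopes passed for 611 to 1411 genes and 0 to 1 members in minus Esrrb, 368 to 865 genes in minus Glis1, 1 to 352 genes and 0 to 6 members in minus Jdp2 and 108 to 619 genes in minus Sall4. Within the days 2 to 7 setting, minus Jdp2 gave 488 genes and 4 members without its day 6 library and 246 genes and 4 members without its day 7 library. No paired analysis was possible because replicate numbers only name the libraries of an arm in accession order; day, which the arms share, was a term of the fit.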
